A study of Homo sapiens with 10 samples.

Results

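The genes described here are 59 genes that duplicate DNA or open its way at the G1/S border of the cell cycle, of 31015 genes counted. The data are SLAM-seq measurements of 22RV1, a cultured cell line from a castration-resistant prostate tumour. They were taken by name, from the helicase loaders to the enzymes that supply nucleotides and chromatin, without regard to how they responded. A gene's symbol came from the transcript that each 3′ interval in the deposited tables was named for, and of overlapping intervals the best-covered was kept. Of the 59, 58 had enough T>C reads to be tested in nascent RNA and 59 were tested in total RNA. The exception was CCNE1, cyclin E1, which had 4 and 9 T>C reads in the control libraries and at most 9 in any library.

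In SLAM-seq the cells incorporate 4-thiouridine, which is read as a T>C conversion after alkylation. Reads with a conversion are taken to come from RNA made during the labelling, here the last 10 min. No library lacked the label, so T>C reads that arise without it were not measured. T>C reads are called nascent below and all reads total. There were 5 groups of 2 libraries, 10 in all: control cells, and cells given 4 h of 20 µM SRPIN340, 50 µM Endovion (SCO-101), THZ531, or THZ531 and Endovion together. The study used SRPIN340 and Endovion as inhibitors of SRPK1, a kinase of splicing factors. THZ531 inhibits CDK12 and CDK13, kinases of RNA polymerase II elongation. Its dose was 100 nM in the methods and 150 nM in the description of the series. The cells of all groups are of the same line and were all labelled. Nothing in the labels says whether the 2 libraries of a group came from separate cultures, so the p-values measure the spread between these libraries, which may be technical.

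Replication begins in G1, when the origin recognition complex (ORC), CDC6 and CDT1 load the MCM helicase on DNA. In S phase CDC45 and the GINS complex turn the helicase on, primase and polymerase alpha lay primers, and polymerases delta and epsilon copy the strands, held by the clamp PCNA, which the RFC complex loads. Transcription of most of these genes is released when cyclin E and cyclin D kinases free E2F factors from the RB family. E2F1, E2F2 and E2F3 activate these genes, and E2F7 and E2F8 repress them later in S phase. In cultured cells, which are not synchronised here, the abundance of these RNAs depends both on the share of cells near S phase and on the RNA in each cell, and the libraries cannot tell fewer such cells from less RNA per cell.

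The libraries held between 19315403 and 30047692 reads on genes, of which between 5.04 and 5.70% had a T>C conversion. The prostate marker HOXB13 and the epithelial markers KRT8, KRT18 and EPCAM were present in all libraries, whereas KLK3 (2.5 to 8.33 CPM, here a gene's reads over the library's reads on genes) and TMPRSS2 (1.05 to 2.66 CPM) were low. Of the 5 markers of other cells, PTPRC, PECAM1 and DCN, of leukocytes, endothelium and fibroblasts, were at or below 0.477 CPM, and the mesenchymal genes VIM (5.85 to 10.3 CPM) and COL1A1 (1.62 to 3.27 CPM) were at the level of the low prostate markers. In all values below CPM are scaled by TMM, the size factors of edgeR. The second control library stood apart from the treated ones. Its total counts correlated with theirs at r of 0.949 to 0.982 on the log scale, against 0.965 to 0.992 for the first control library, as a description over the genes tested. For 35 of the 59 genes (59.3%), and for 51.7% of all genes tested, the first control library lay between the second and the treated libraries in total RNA. The counts of called genes against control, over the 59 and over a wider list, are therefore also given without the second control library, and the part of that library in the results was not tested. With 2 libraries a group, an exact two-sided permutation test of a single gene cannot go below p = 0.333, and calls rest on the fit over all genes and libraries.

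The promoters of these genes are known for E2F sites, and the start regions of 7 of the genes that the results turn on are shown here. RefSeq windows (GRCh38.p14) from 250 bases before to 50 bases after the transcription start were held for 51 of the 59. Not matched were CCNE2, E2F8, GINS4, MCM4, MCM5, POLD3, RPA2 and RPA3. The windows were searched on both strands for TTTCCCGC, TTTCGCGC, TTTGCCGC and TTTGGCGC, called E2F words here. At least 1 stood in 26 of the 51 genes (51.0%), in 3.99% of all 27305 genes with a window and in 5.4% of 15843 protein-coding genes. The CCAAT box, searched as CCAAT on both strands, stood in 30 of the 51 (58.8%), against 39.7% of all genes. The runs below go from 120 bases before to 30 bases after the start, 5′ to 3′ on the gene's strand, with E2F words in capitals. They lie at chr19:10194924-10195073 (minus strand) for DNMT1, chr20:5126593-5126742 (minus) for PCNA, chr3:127598291-127598440 (plus) for MCM2, chr13:33818029-33818178 (plus) for RFC3, chr17:40287759-40287908 (plus) for CDC6, chr20:25407553-25407702 (plus) for GINS1 and chr4:1712290-1712439 (minus) for SLBP.
DNMT1: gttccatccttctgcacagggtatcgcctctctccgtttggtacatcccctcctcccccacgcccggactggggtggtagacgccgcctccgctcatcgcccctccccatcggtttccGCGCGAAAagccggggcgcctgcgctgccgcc
PCNA: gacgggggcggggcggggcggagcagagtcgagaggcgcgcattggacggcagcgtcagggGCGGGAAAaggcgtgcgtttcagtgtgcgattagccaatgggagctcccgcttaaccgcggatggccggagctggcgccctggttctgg
MCM2: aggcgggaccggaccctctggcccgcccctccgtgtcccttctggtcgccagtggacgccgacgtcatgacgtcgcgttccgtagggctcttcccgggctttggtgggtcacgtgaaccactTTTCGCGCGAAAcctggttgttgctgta
RFC3: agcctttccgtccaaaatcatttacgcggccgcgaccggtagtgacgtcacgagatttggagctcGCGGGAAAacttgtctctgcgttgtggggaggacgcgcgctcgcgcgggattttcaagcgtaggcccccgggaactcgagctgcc
CDC6: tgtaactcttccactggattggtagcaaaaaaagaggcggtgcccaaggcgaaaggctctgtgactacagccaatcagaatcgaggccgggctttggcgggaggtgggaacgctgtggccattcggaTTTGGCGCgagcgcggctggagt
GINS1: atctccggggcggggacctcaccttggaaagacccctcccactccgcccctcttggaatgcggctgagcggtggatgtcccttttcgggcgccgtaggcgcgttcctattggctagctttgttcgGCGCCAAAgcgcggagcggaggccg
SLBP: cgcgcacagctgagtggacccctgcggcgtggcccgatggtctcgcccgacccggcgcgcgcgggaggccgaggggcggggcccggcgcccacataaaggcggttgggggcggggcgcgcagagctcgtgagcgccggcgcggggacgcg
The MCM2 run holds 2 words that overlap on opposite strands, and SLBP holds none in its window. Of the genes that rose or fell in total RNA with THZ531 (below), 9 of 14 and 4 of 8 with a window had an E2F word, as had 13 of 29 of those not called. A word in a window is a match of letters and does not show that a factor binds there.

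Replication genes moved in both directions, so that their medians stayed near 0. The median log2 fold change of the 59 genes lay between -0.04 and 0.09 in total RNA against control, and that of the 58 tested genes between -0.02 and 0.01 in nascent RNA. Over all genes tested the medians ranged from -0.01 to 0.03 in total and from -0.02 to -0.01 in nascent RNA. Of the 59, 31 (52.5%) were called in at least 1 test of nascent RNA, total RNA or share, against 41.8% of all 14689 genes tested. Nascent RNA and share were tested in 58 of the 59, but in only 9946 of the 14689. The other genes could be called in total RNA alone, so these percentages do not show an excess of calls among the 59. A gene is called when the quasi-likelihood fit of edgeR gave it an adjusted p (Benjamini-Hochberg, over all genes) under 0.05.

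THZ531 had the most calls. In total RNA 15 of the 59 genes rose and 9 fell (25.4 and 15.3%), against 16.6% and 14.1% of all 14689 genes tested, so the share that fell lay near that of all genes. With THZ531 and Endovion together 14 rose and 4 fell (23.7 and 6.78%), against 16.6% and 12.4% of all genes. Endovion alone raised 8 genes and lowered 1 (13.6 and 1.69%), where 8.9% of all genes rose and 2.54% fell. SRPIN340 gave 0 calls in edgeR, where 1.82% of all genes rose and 0.143% fell; 19 of the 59 (32.2%) had an unadjusted p under 0.05, against 19.3% of all genes, and DESeq2 called 4 (6.78%), against 7.25% of all genes. Leaving out the second control library, THZ531 left 8 genes up and 5 down (13.6 and 8.47%, against 6.99% and 9.69% of all genes), the combination 7 up and 5 down (against 6.65% and 7.77%), Endovion 2 up (against 1.12%), and SRPIN340 0. Of the genes called with all libraries, 12 of 24, 10 of 18 and 1 of 9 stayed called. The 12 with THZ531 were ORC6, E2F3, GMNN, DNMT1, RFC3, PRIM2, SLBP and UHRF1, which rose, and CDC6, GINS1, ORC5 and CHAF1A, which fell. The 10 with the combination were ORC6, POLA1, E2F3, DNMT1, PRIM2, SLBP and UHRF1, which rose, and CDC6, GINS1 and RFC4, which fell, and the gene with Endovion was ORC6. Without the second THZ531 library the count for THZ531 was 5, and without either of the Endovion libraries the count for Endovion was 0.

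Fewer calls were made in nascent RNA, where the T>C reads are a small part of all reads. SRPIN340 raised 1 gene and lowered 0, against 0.845% and 0.191% of all 9946 genes tested. Endovion raised 3 and lowered 1 (5.17 and 1.72%), against 2.04% and 0.623% of all genes. THZ531 raised 4 and lowered 1 (6.9 and 1.72%), against 3.86% and 3.6%. THZ531 with Endovion raised 4 and lowered 0, against 4.61% and 3.51%. Without the second control library the 4 counts were 0, 0, 0 and 1, and only 1 of these calls was kept, DNMT1 in the combination.

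**Figure D1:**
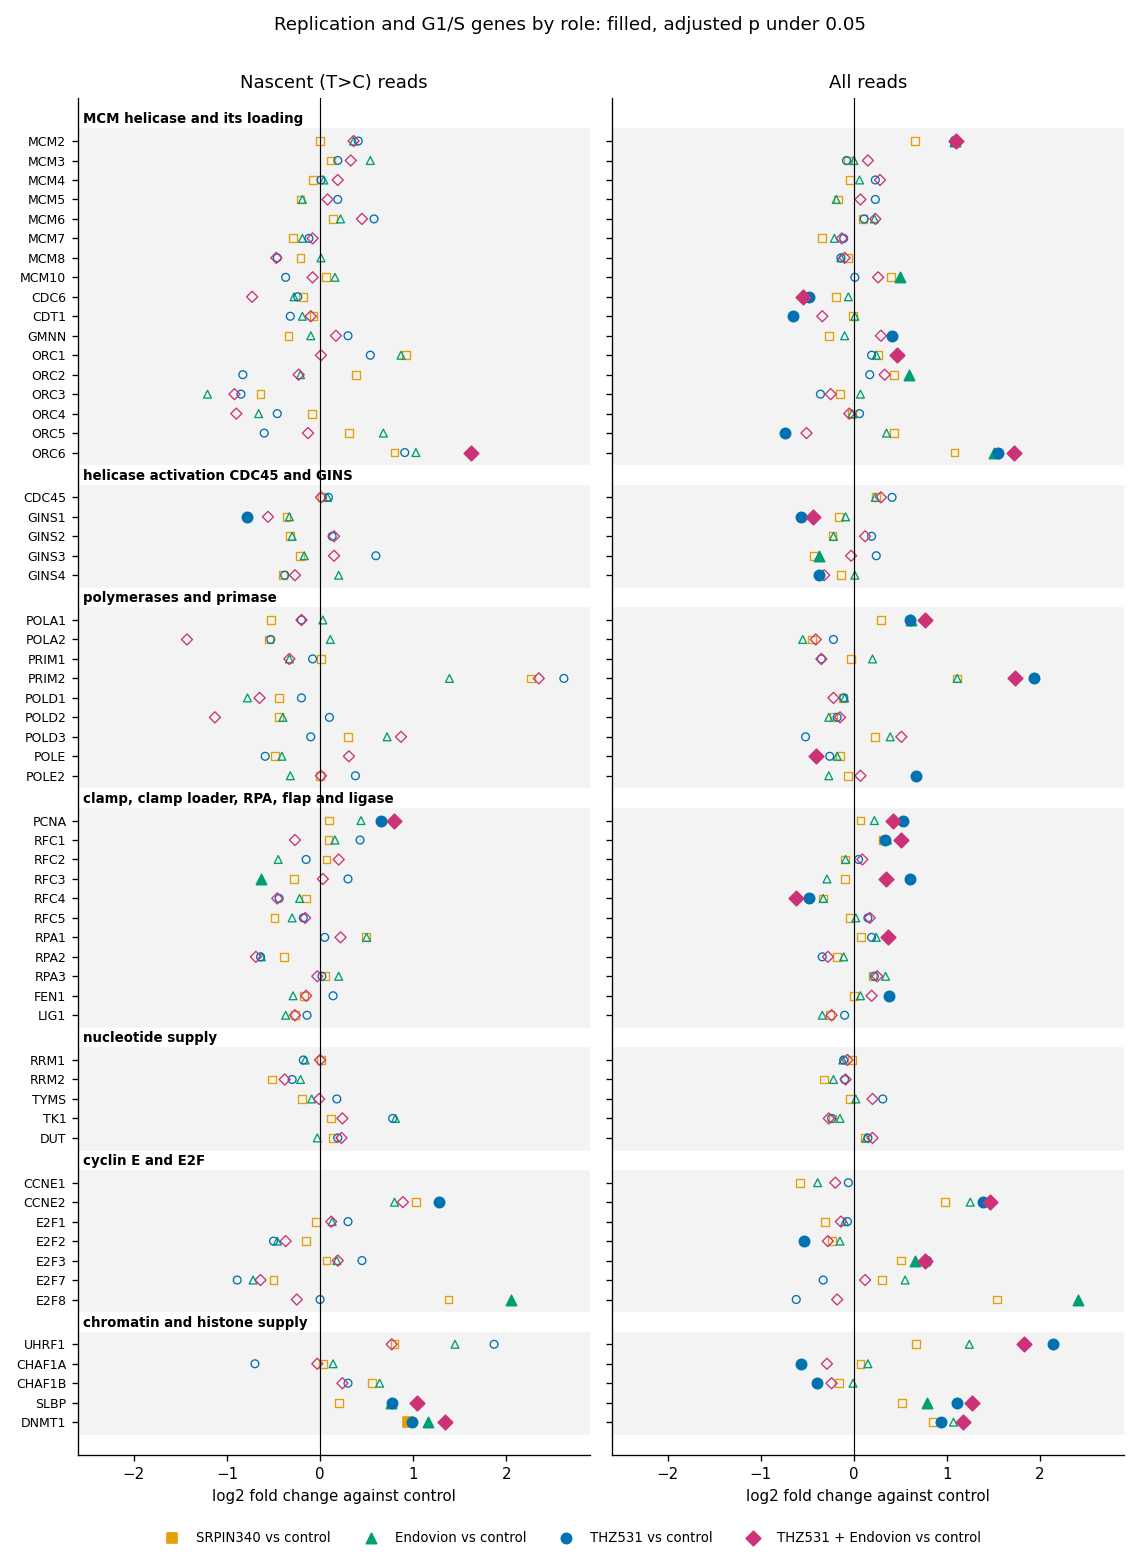
Log2 fold change against control (x axis) of each of the 59 genes, grouped by role (y axis), in nascent (T>C) reads on the left and all reads on the right. Squares, triangles, circles and diamonds are the 4 treatments, and filled symbols have an adjusted p under 0.05; CCNE1 has no nascent value. Most genes sit near 0. DNMT1, SLBP, ORC6, CCNE2, PRIM2 and UHRF1 lie to the right, as does E2F8 with Endovion, and CDC6, GINS1 and RFC4 lie to the left.

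Of the 5 genes that supply chromatin to new DNA, 3 rose and 2 fell in total RNA with THZ531. As shares these were 60 and 40%, against 16.6% and 14.1% of all genes. All but CHAF1B stayed called without the second control library. DNMT1, which copies DNA methylation to the daughter strand, was the only one of the 59 with a nascent rise called in all 4 treatments. Its nascent CPM was 109 and 56.2 in control, 185 and 135 with SRPIN340, 208 and 164 with Endovion, 167 and 164 with THZ531 and 206 and 217 with THZ531 and Endovion. Both control libraries lay below all 8 treated ones, as they did for nascent ORC6, PRIM2 and CHAF1B. The log2 fold change was 0.94 ± 0.22 (SE, n = 2 per group) with SRPIN340 (adjusted p = 0.0161), 1.16 ± 0.22 with Endovion (adjusted p = 0.000607), 0.99 ± 0.23 with THZ531 (adjusted p = 0.00237) and 1.34 ± 0.22 with the combination (adjusted p = 2.43e-05). The 4 comparisons share the control libraries, of which the second was the lower, at 56.2 CPM. Without it the values were 0.56, 0.78, 0.60 and 0.96, and only that of the combination was called (adjusted p = 0.0125). In total RNA DNMT1 was at 151 and 74.6 in control, 189 and 218 with SRPIN340, 231 and 244 with Endovion, 205 and 229 with THZ531 and 267 and 243 with THZ531 and Endovion. Again no treated library overlapped the controls, and the total rise was called with THZ531 (0.94 ± 0.29, adjusted p = 0.0452) and with the combination (1.17 ± 0.29, adjusted p = 0.0217), but not with Endovion (1.07 ± 0.29, adjusted p = 0.0582). Without the second control library the called values were 0.48 (adjusted p = 0.0217) and 0.71 (adjusted p = 0.0027). The total call with THZ531 held under 7 of 18 alternatives, and was lost when any 1 of the 8 treated libraries was left out.

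SLBP binds the stem-loop at the end of histone mRNAs and is needed for their processing. Total SLBP was at 174 and 114 in control, 209 and 204 with SRPIN340, 244 and 250 with Endovion, 268 and 351 with THZ531 and 369 and 323 with THZ531 and Endovion. The controls were the lowest, and the 4 libraries with THZ531 the highest. It rose by a log2 fold change of 0.78 ± 0.18 with Endovion (adjusted p = 0.0186), 1.11 ± 0.18 with THZ531 (adjusted p = 0.000977) and 1.27 ± 0.18 with both (adjusted p = 0.000467). The last 2 calls held under every alternative tried, with values of 0.79 to 1.45 and 0.95 to 1.61. Nascent SLBP was at 128 and 82.6 in control, 113 and 130 with SRPIN340, 193 and 165 with Endovion, 158 and 206 with THZ531 and 207 and 229 with THZ531 and Endovion. Its rises of 0.76 ± 0.21, 0.77 ± 0.21 and 1.04 ± 0.21 in the same 3 treatments were called (adjusted p = 0.0298, 0.0134 and 0.000462), and none of them without the second control library.

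UHRF1, the reader of hemimethylated DNA that brings DNMT1 to replicated sites, was sparse. Its total CPM was 6.45 and 1.98 in control, 6.28 and 7.27 with SRPIN340, 10.5 and 9.59 with Endovion, 13.3 and 24.5 with THZ531 and 13.3 and 17.2 with THZ531 and Endovion. The 4 libraries with THZ531 lay above the other 6. The rise was called with THZ531 (2.14 ± 0.50, adjusted p = 0.0147) and with the combination (1.83 ± 0.50, adjusted p = 0.0284), and without the second control library the values were 1.51 and 1.19, still called. The call with the combination held under 11 of 18 alternatives, and that with THZ531 under 16 of 18. CHAF1A and CHAF1B, the large subunits of the chromatin assembly factor CAF-1, went the other way with THZ531. CHAF1A was at 46.8 and 48.5 in control, 47.8 and 52 with SRPIN340, 48.8 and 57.2 with Endovion, 35.8 and 28.3 with THZ531 and 32.9 and 45.3 with THZ531 and Endovion, and CHAF1B at 34.5 and 37.1 in control, 33.9 and 30.5 with SRPIN340, 35.1 and 36.2 with Endovion, 27.9 and 26.3 with THZ531 and 29.9 and 31 with THZ531 and Endovion. With THZ531 alone CHAF1A fell by 0.57 ± 0.16 on the log2 scale (adjusted p = 0.015) and CHAF1B fell by 0.40 ± 0.13 (adjusted p = 0.0317), with no overlap with control. With Endovion added neither was called. The CHAF1B call with THZ531 held under 11 of 18 alternatives, and that of CHAF1A under 16.

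Among the 17 genes of the MCM helicase and its loading, total RNA of 3 rose and 3 fell with THZ531, 3 rose and 1 fell with the combination, and 4 rose with Endovion. As shares these were 17.6 and 17.6%, 17.6 and 5.88%, and 23.5%, against 16.6 and 14.1%, 16.6 and 12.4%, and 8.9% of all genes. Without the second control library the counts were 2 and 2, 1 and 2, and 1. ORC6, the smallest ORC subunit, rose most. Its total CPM was 39.1 and 19.7 in control, 54.8 and 70 with SRPIN340, 91.7 and 75.7 with Endovion, 70.9 and 102 with THZ531 and 104 and 90.5 with THZ531 and Endovion. All treated libraries were above both controls. The rise was 1.51 ± 0.33 with Endovion (adjusted p = 0.0319), 1.55 ± 0.33 with THZ531 (adjusted p = 0.0125) and 1.72 ± 0.34 with the combination (adjusted p = 0.0087), and each was called without the second control library too. Nascent ORC6 was at 25.7 and 12.8 in control, 29.1 and 39.4 with SRPIN340, 49.9 and 29.8 with Endovion, 31.9 and 42.7 with THZ531 and 51.7 and 69.8 with THZ531 and Endovion, and was called only with the combination (1.62 ± 0.38, adjusted p = 0.00345).

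The other origin subunits were each called in fewer comparisons than ORC6. ORC5 total RNA was at 44.7 and 25.4 in control, 47.1 and 47.4 with SRPIN340, 43.7 and 45.9 with Endovion, 23.2 and 18.8 with THZ531 and 21.9 and 27.4 with THZ531 and Endovion. The second control library lay within the range of those with THZ531. The fall with THZ531 was called (-0.74 ± 0.22, adjusted p = 0.0237), was -1.13 without the second control library (adjusted p = 0.000457), and was -0.27 and not called without the first. Between the combination and Endovion alone it fell by 0.86 ± 0.22 (adjusted p = 0.0297), and those libraries did not overlap. ORC2 rose with Endovion only among the tests run (0.59 ± 0.17, adjusted p = 0.0321), from 31 and 22.7 in control, 32.8 and 39.3 with SRPIN340, 42.2 and 38.6 with Endovion, 28 and 32.4 with THZ531 and 31.4 and 36.3 with THZ531 and Endovion. ORC1 was called only with the combination (0.46 ± 0.16, adjusted p = 0.0429), at 16.1 and 16.7 in control, 19.5 and 19.6 with SRPIN340, 20.9 and 17.8 with Endovion, 20.6 and 16.8 with THZ531 and 22.9 and 22.1 with THZ531 and Endovion. Both calls were lost without the second control library. The ORC1 call held under 3 of 18 alternatives. ORC3 and ORC4 were not called in any test.

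CDC6 and CDT1, which load the helicase, were lower with THZ531. Total CDC6 was at 89.7 and 88 in control, 81.6 and 74.3 with SRPIN340, 79.8 and 90.2 with Endovion, 69.5 and 57.5 with THZ531 and 52.8 and 68.8 with THZ531 and Endovion. The 4 libraries with THZ531 were the lowest 4. CDC6 fell by 0.48 ± 0.14 on the log2 scale with THZ531 (adjusted p = 0.0176), by 0.55 ± 0.14 with the combination (adjusted p = 0.00956) and by 0.48 ± 0.14 between the combination and Endovion alone (adjusted p = 0.0476). The first 2 were called without the second control library as well, at -0.54 and -0.61. The third comparison does not use a control library. It was called under 9 of 18 alternatives, and lost when either Endovion library was left out. Nascent CDC6 was at 54.1 and 58.6 in control, 54.8 and 44.4 with SRPIN340, 48.3 and 44.3 with Endovion, 59.2 and 34.6 with THZ531 and 31.3 and 36.4 with THZ531 and Endovion, and no nascent difference was called. Total CDT1 was at 126 and 150 in control, 138 and 136 with SRPIN340, 159 and 119 with Endovion, 97.7 and 76.3 with THZ531 and 123 and 94.5 with THZ531 and Endovion. It fell with THZ531 alone (-0.66 ± 0.17, adjusted p = 0.0099) and not by the test with the combination (-0.34 ± 0.17, adjusted p = 0.146). Nascent CDT1, at 126 and 197 in control, 152 and 155 with SRPIN340, 176 and 104 with Endovion, 131 and 127 with THZ531 and 195 and 102 with THZ531 and Endovion, was not called. Geminin (GMNN), the protein that inhibits CDT1, was at 107 and 115 in control, 92.1 and 92.7 with SRPIN340, 94.8 and 113 with Endovion, 143 and 152 with THZ531 and 128 and 144 with THZ531 and Endovion. With THZ531 it rose by 0.41 ± 0.12 (adjusted p = 0.0159), and the 4 libraries with THZ531 were the highest 4.

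Of the helicase subunits MCM2 alone was called. Its total CPM was 131 and 92.1 in control, 142 and 212 with SRPIN340, 263 and 213 with Endovion, 208 and 267 with THZ531 and 245 and 233 with THZ531 and Endovion, with both controls below all treated libraries. It rose by 1.09 ± 0.23 with Endovion (adjusted p = 0.0216), 1.09 ± 0.23 with THZ531 (adjusted p = 0.00842) and 1.10 ± 0.23 with the combination (adjusted p = 0.00836). None was called without the second control library, where the 3 values were 0.82 each. MCM7, by contrast, was at 334 and 362 in control, 269 and 282 with SRPIN340, 311 and 289 with Endovion, 320 and 323 with THZ531 and 323 and 312 with THZ531 and Endovion in total and 214 and 270 in control, 216 and 180 with SRPIN340, 193 and 229 with Endovion, 208 and 238 with THZ531 and 245 and 209 with THZ531 and Endovion in nascent RNA. Its largest difference in total RNA was -0.34 ± 0.10 with SRPIN340 (adjusted p = 0.0888). MCM3, MCM4, MCM5, MCM6 and MCM8, the last a helicase of recombination, were not called either, and the 8 uncalled genes of this role, ORC3 and ORC4 included, ranged from -0.36 to 0.28 in total RNA. MCM10, an initiation factor, rose with Endovion (0.49 ± 0.14, adjusted p = 0.0298). It was at 134 and 104 in control, 152 and 162 with SRPIN340, 160 and 174 with Endovion, 126 and 113 with THZ531 and 128 and 158 with THZ531 and Endovion. Both Endovion libraries were above the controls, and those with THZ531 alone were not.

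Of the 5 genes of helicase activation, 0 rose and 2 fell in total RNA with THZ531 (40% down, against 14.1% of all genes). The median log2 fold change was 0.19, and 3 of the 5 lay above 0. Those that fell were GINS1 and GINS4, subunits of the GINS ring. Total GINS1 was at 88.6 and 79.9 in control, 73.3 and 77.6 with SRPIN340, 80.4 and 77.8 with Endovion, 54.5 and 58.9 with THZ531 and 62.5 and 61.4 with THZ531 and Endovion. Its 4 libraries with THZ531 were all below the others. It fell by 0.57 ± 0.12 on the log2 scale with THZ531 (adjusted p = 0.00198) and by 0.44 ± 0.12 with the combination (adjusted p = 0.01). Nascent GINS1 was at 122 and 119 in control, 87.3 and 100 with SRPIN340, 102 and 89.5 with Endovion, 69 and 70.2 with THZ531 and 89 and 73.8 with THZ531 and Endovion, and fell by 0.79 ± 0.25 with THZ531 (adjusted p = 0.0329). The nascent call was lost without either control library. GINS4 fell in total RNA with THZ531 (-0.37 ± 0.13, adjusted p = 0.043), at 58.2 and 59.7 in control, 51.4 and 55.6 with SRPIN340, 62.3 and 56 with Endovion, 50 and 41.3 with THZ531 and 48.7 and 46 with THZ531 and Endovion. GINS3 was lower with Endovion (-0.38 ± 0.11, adjusted p = 0.0321), at 98.9 and 93.9 in control, 72.1 and 71 with SRPIN340, 73.7 and 73.9 with Endovion, 117 and 111 with THZ531 and 92.1 and 97 with THZ531 and Endovion, and its libraries with Endovion or SRPIN340 were the lowest 4. The GINS4 call held under 8 of 18 alternatives. GINS2 and CDC45 were not called.

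Of the 9 genes of primase and the polymerases, 3 rose and 0 fell in total RNA with THZ531 (33.3% up, against 16.6% of all genes), while 6 of the 9 had a log2 fold change below 0 and the median was -0.18. Without the second control library 1 rose. PRIM2, the large primase subunit, was at 3.1 and 1.85 in control, 5.12 and 5.65 with SRPIN340, 4.51 and 6.28 with Endovion, 6.08 and 13.2 with THZ531 and 8.07 and 8.48 with THZ531 and Endovion in total RNA. All treated libraries lay above the controls. PRIM2 rose by 1.94 ± 0.35 with THZ531 (adjusted p = 0.00109) and 1.73 ± 0.35 with the combination (adjusted p = 0.00251), and both calls held under every alternative tried. Partial copies of PRIM2 are known in the genome, so its counts are uncertain. POLA1, the catalytic subunit of polymerase alpha, was at 15.7 and 14.3 in control, 16.1 and 20.6 with SRPIN340, 22 and 23.6 with Endovion, 20.4 and 25.1 with THZ531 and 26.6 and 24.1 with THZ531 and Endovion. It rose by 0.61 ± 0.17 with Endovion (adjusted p = 0.032), 0.60 ± 0.17 with THZ531 (adjusted p = 0.0144) and 0.76 ± 0.17 with both (adjusted p = 0.00403). In nascent RNA POLA1 was at 27.7 and 16.9 in control, 13.5 and 17.5 with SRPIN340, 19.2 and 26.9 with Endovion, 13.7 and 26.4 with THZ531 and 19.5 and 19.7 with THZ531 and Endovion and was not called. POLE2, of polymerase epsilon, rose with THZ531 alone (0.67 ± 0.23, adjusted p = 0.0342), at 7.52 and 7.87 in control, 6.4 and 8.32 with SRPIN340, 5.47 and 7.37 with Endovion, 11 and 13.5 with THZ531 and 7.54 and 8.58 with THZ531 and Endovion. POLE, its catalytic subunit, fell with the combination (-0.41 ± 0.15, adjusted p = 0.0452), at 31.9 and 34.1 in control, 28.5 and 30.9 with SRPIN340, 30.6 and 27.6 with Endovion, 30 and 25 with THZ531 and 23.4 and 26.2 with THZ531 and Endovion. The POLE call held under 6 of 18 alternatives. The counts of POLE2 sum 3 separate intervals, with 1211, 790 and 8 reads over all libraries. That with 790 reads, chr14:49679474-49679678, lies near the 5′ end of the gene, and the intervals were not tested apart. Of the other 5, POLA2, PRIM1, POLD1, POLD2 and POLD3, none was called, with total log2 fold changes of -0.55 to 0.51.

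At the clamp, PCNA rose in both kinds of read. Nascent PCNA was at 198 and 166 in control, 184 and 206 with SRPIN340, 235 and 260 with Endovion, 236 and 347 with THZ531 and 317 and 314 with THZ531 and Endovion. The 4 libraries with THZ531 and those with Endovion were above the controls. It rose by 0.66 ± 0.18 with THZ531 (adjusted p = 0.0143) and 0.79 ± 0.18 with the combination (adjusted p = 0.00279). Total PCNA, at 445 and 391 in control, 416 and 460 with SRPIN340, 425 and 553 with Endovion, 531 and 680 with THZ531 and 521 and 595 with THZ531 and Endovion, rose by 0.53 ± 0.14 (adjusted p = 0.0122) and 0.42 ± 0.14 (adjusted p = 0.0425). None of the 4 was called without the second control library.

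The clamp loader did not move as a unit. RFC3 total RNA was at 115 and 125 in control, 110 and 115 with SRPIN340, 95.3 and 101 with Endovion, 170 and 193 with THZ531 and 136 and 170 with THZ531 and Endovion. Its libraries with THZ531 were all above the others. It rose by 0.60 ± 0.12 with THZ531 (adjusted p = 0.00223), 0.35 ± 0.12 with the combination (adjusted p = 0.0441) and 0.64 ± 0.12 between the combination and Endovion alone (adjusted p = 0.00439). Nascent RFC3 was at 245 and 296 in control, 227 and 218 with SRPIN340, 166 and 184 with Endovion, 330 and 335 with THZ531 and 250 and 301 with THZ531 and Endovion. It fell by 0.63 ± 0.18 on the log2 scale with Endovion (adjusted p = 0.034), and was higher by 0.66 ± 0.18 with the combination than with Endovion alone (adjusted p = 0.0451). The fall with Endovion was -0.49 without the second control library and not called (adjusted p = 0.376), nor was it called without either Endovion library. The difference between the combination and Endovion was called under 6 of 19 alternatives, and lost when any 1 of the 8 treated libraries was left out. The total rise with the combination was called under 3 of 18. RFC4, a subunit of the same ring, fell where RFC3 rose. Total RFC4 was at 300 and 327 in control, 286 and 214 with SRPIN340, 221 and 279 with Endovion, 237 and 213 with THZ531 and 203 and 206 with THZ531 and Endovion. It fell by 0.48 ± 0.14 with THZ531 (adjusted p = 0.0174) and by 0.62 ± 0.14 with the combination (adjusted p = 0.00452). RFC1, the large subunit, rose by 0.33 ± 0.12 and 0.51 ± 0.12 in the same 2 comparisons (adjusted p = 0.0478 and 0.00567), at 55.2 and 48.4 in control, 64.5 and 63.7 with SRPIN340, 68.1 and 64.8 with Endovion, 66.6 and 64 with THZ531 and 77.8 and 69.9 with THZ531 and Endovion. The RFC1 call with THZ531 held under 3 of 18 alternatives, and that with the combination under 15. RFC2 and RFC5 were not called.

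The remaining genes of this role had few calls. FEN1, the flap endonuclease of Okazaki fragments, rose with THZ531 (0.38 ± 0.12, adjusted p = 0.0241), at 331 and 253 in control, 286 and 296 with SRPIN340, 306 and 308 with Endovion, 382 and 375 with THZ531 and 327 and 339 with THZ531 and Endovion. RPA1, of the single-strand binding complex, rose with the combination (0.37 ± 0.12, adjusted p = 0.0278), at 72.4 and 65.5 in control, 69.1 and 76.6 with SRPIN340, 81.3 and 81.3 with Endovion, 75.8 and 81.8 with THZ531 and 94.4 and 84.3 with THZ531 and Endovion. Both calls were lost without the second control library. RPA2, RPA3 and LIG1, the ligase of the lagging strand, were not called.

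None of the 5 genes of nucleotide supply was called in any test. RRM2, the S phase subunit of ribonucleotide reductase, was at 377 and 380 in control, 294 and 314 with SRPIN340, 332 and 317 with Endovion, 350 and 359 with THZ531 and 326 and 386 with THZ531 and Endovion in total and 265 and 303 in control, 188 and 207 with SRPIN340, 247 and 245 with Endovion, 251 and 210 with THZ531 and 218 and 217 with THZ531 and Endovion in nascent RNA. Its counts sum 7 intervals. The main one held 74949 reads over all libraries, and intervals further downstream, at chr2:10198592-10199288 and chr2:10210311-10211725, held 4480 and 3732. Thymidylate synthase (TYMS) was at 222 and 247 in control, 222 and 233 with SRPIN340, 224 and 252 with Endovion, 251 and 329 with THZ531 and 262 and 277 with THZ531 and Endovion in total and 198 and 214 in control, 197 and 165 with SRPIN340, 196 and 191 with Endovion, 211 and 259 with THZ531 and 191 and 219 with THZ531 and Endovion in nascent RNA. Its total difference with THZ531 was 0.31 ± 0.13 (adjusted p = 0.077). RRM1, TK1 and DUT complete the list, whose total log2 fold changes against control ranged from -0.32 to 0.31.

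The cyclin E and E2F genes divided within each family. CCNE2, cyclin E2, was at 13.3 and 7.45 in control, 14.8 and 26.1 with SRPIN340, 24.1 and 25.2 with Endovion, 21.8 and 33 with THZ531 and 22.2 and 35.1 with THZ531 and Endovion in total RNA, with all treated libraries above the controls. It rose by 1.39 ± 0.39 with THZ531 (adjusted p = 0.0322) and 1.46 ± 0.40 with the combination (adjusted p = 0.0286). In nascent RNA, at 30.9 and 10.4 in control, 37.9 and 48.8 with SRPIN340, 39.1 and 34.6 with Endovion, 43.6 and 60 with THZ531 and 20.3 and 59 with THZ531 and Endovion, the rise with THZ531 was called (1.28 ± 0.41, adjusted p = 0.0462). None of these calls held without the second control library. CCNE1 total RNA was at 8.98 and 9.13 in control, 6.62 and 5.53 with SRPIN340, 7.77 and 5.98 with Endovion, 10.2 and 7.13 with THZ531 and 7.67 and 8.11 with THZ531 and Endovion, and was not called.

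Of the activating E2Fs, E2F3 rose and E2F2 fell. Total E2F3 was at 84.2 and 61.2 in control, 99.6 and 108 with SRPIN340, 113 and 117 with Endovion, 116 and 132 with THZ531 and 124 and 122 with THZ531 and Endovion. All treated libraries exceeded the controls. The rises were 0.66 ± 0.14 with Endovion (adjusted p = 0.00798), 0.77 ± 0.14 with THZ531 (adjusted p = 0.00083) and 0.76 ± 0.14 with both (adjusted p = 0.00101), of which the last 2 were called without the second control library. E2F2 was at 70.6 and 83.1 in control, 63.5 and 66.9 with SRPIN340, 71.1 and 67.3 with Endovion, 59.3 and 45.9 with THZ531 and 66 and 60.8 with THZ531 and Endovion, and fell with THZ531 alone (-0.54 ± 0.14, adjusted p = 0.00815). E2F1 was at 68.6 and 79.6 in control, 55.4 and 64.5 with SRPIN340, 71.3 and 66.6 with Endovion, 69.8 and 71.2 with THZ531 and 70.6 and 63.8 with THZ531 and Endovion in total and 47.6 and 57.8 in control, 41.9 and 60.1 with SRPIN340, 66 and 48.1 with Endovion, 60.5 and 69.1 with THZ531 and 52.5 and 62 with THZ531 and Endovion in nascent RNA. Its total log2 fold changes were -0.31 ± 0.13 with SRPIN340 (adjusted p = 0.206) and -0.14 to -0.07 in the others, none called.

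E2F8, a repressor of E2F targets, set Endovion apart from the THZ531 treatments. Its total CPM was 4.81 and 4.08 in control, 7.63 and 18.2 with SRPIN340, 29.3 and 17.9 with Endovion, 1.51 and 4.5 with THZ531 and 3.55 and 4.34 with THZ531 and Endovion. Both Endovion libraries lay well above control, as did the second SRPIN340 library, and those with THZ531, with or without Endovion, did not. From control to Endovion it rose by 2.41 ± 0.57 (adjusted p = 0.0384), and from Endovion to the combination it fell by 2.59 ± 0.58 (adjusted p = 0.0392). The nascent values were 12.9 and 3.21 in control, 9.47 and 33.8 with SRPIN340, 38.4 and 30.8 with Endovion, 8.46 and 8.13 with THZ531 and 3.39 and 10.8 with THZ531 and Endovion. The nascent rise with Endovion was 2.05 ± 0.60 (adjusted p = 0.047) and the nascent fall from Endovion to the combination was -2.30 ± 0.64 (adjusted p = 0.05 after rounding). These rest on 41 to 767 reads and 4 to 54 T>C reads a library, and the calls were lost when either Endovion library was left out. The interaction, which asks whether THZ531 acts differently with Endovion, was -2.31 ± 0.93 in nascent RNA (adjusted p = 0.482) and -1.97 ± 0.84 in total RNA (adjusted p = 0.386). E2F7, the other atypical E2F, was not called.

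**Figure D2:**
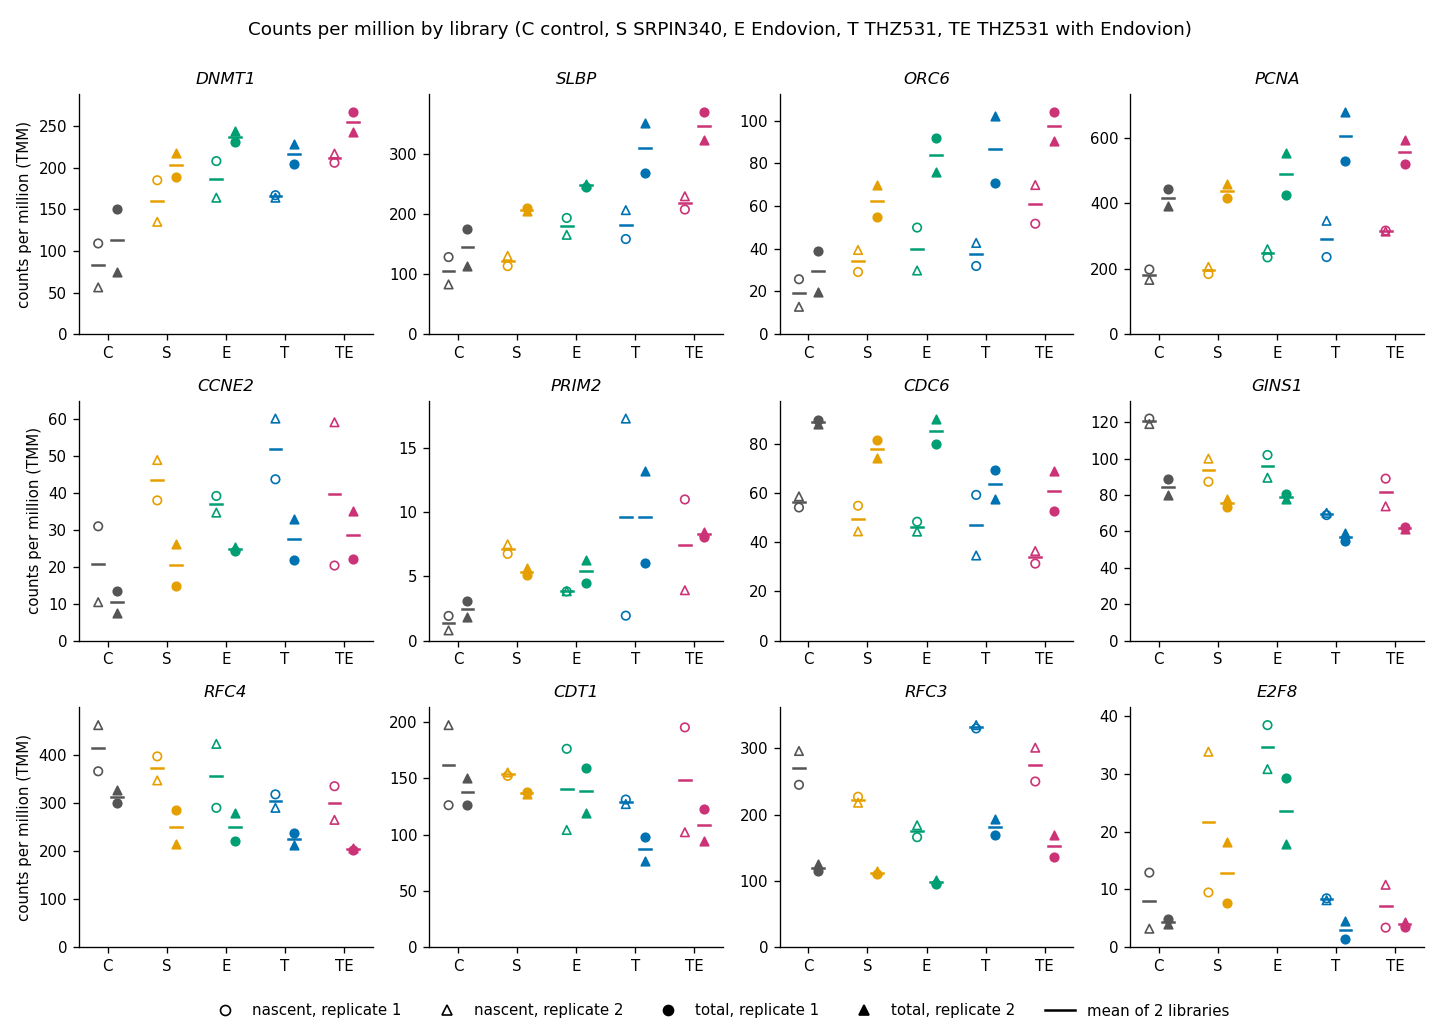
CPM (y axis, from 0, scaled by TMM) of 12 genes in each library by group (x axis: C control, S SRPIN340, E Endovion, T THZ531, TE THZ531 with Endovion). Open symbols are nascent and filled symbols total reads, each scaled within its own kind of read, circles and triangles are replicates 1 and 2, and bars are means of 2. The second control library is the lower one for DNMT1, SLBP and ORC6, CDC6 and GINS1 are lower with THZ531, and E2F8 is high with Endovion alone and in the second SRPIN340 library.

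Adding Endovion to THZ531 changed none of these genes by the test. Against THZ531 alone 0 of the 58 and 0 of the 59 genes were called by edgeR in nascent and total RNA, against 0.322% and 0.511% of all genes; 3 and 5 (5.17 and 8.47%) had an unadjusted p under 0.05, against 7.81 and 11% of all genes, and DESeq2 called 0 and 1, against 0.703% and 2.36%. The interaction gave 0 and 0 calls, against 0.302% and 0.00681% of all genes, with 4 and 6 genes (6.9 and 10.2%) at an unadjusted p under 0.05, against 7.7 and 13% of all genes, and 0 and 1 called by DESeq2, against 0.426% and 1.6%. Without the second control library it gave 0 and 0 calls. The largest total difference between the combination and THZ531 was in POLD3, an accessory subunit of polymerase delta, at 23.3 and 18.4 in control, 24.7 and 24.3 with SRPIN340, 27.5 and 27.1 with Endovion, 15.1 and 14 with THZ531 and 38.1 and 21.4 with THZ531 and Endovion. It was 1.03 ± 0.22 on the log2 scale (adjusted p = 0.0548), and the 2 combination libraries were far apart, at 38.1 and 21.4 CPM.

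The effect of THZ531 can be read a second time, in libraries that the comparison with control does not use, by setting the combination against Endovion alone. This comparison was added after the data had been seen. In total RNA 1 gene rose (RFC3) and 3 fell (CDC6, ORC5 and E2F8), against 2.29% and 5.94% of all genes, and in nascent RNA 1 rose (RFC3) and 1 fell (E2F8), against 0.452% and 0.855%. All 15 genes that rose with THZ531 against control had the same sign here, as had all 9 that fell. Over all genes tested 87% of those that rose and 95.6% of those that fell did so. The median log2 fold change of the 15 was 0.77 against control and 0.21 against Endovion, and that of the 9 was -0.54 and -0.35. The first value of each pair is also the one that chose the genes. MCM2 had a total difference of 0.01 ± 0.23 between the combination and Endovion, DNMT1 of 0.10 ± 0.28 and E2F3 of 0.09 ± 0.14, so their total levels with THZ531 lay near those with Endovion alone. Over all genes the medians were 0.78 and 0.24 for rises and -0.94 and -0.59 for falls.

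**Figure D3:**
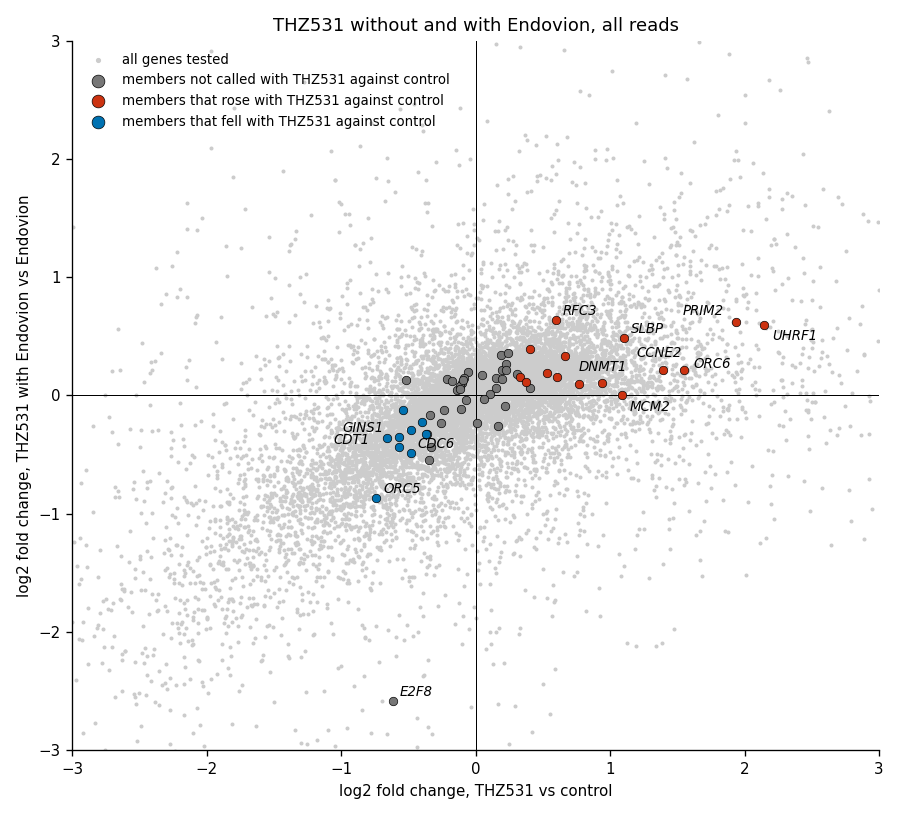
Log2 fold change in all reads with THZ531 against control (x axis) and with THZ531 and Endovion against Endovion (y axis), for all genes tested (grey) and the 59 replication genes (coloured by their call against control). The axes end at 3 either way and leave out 369 genes, none of them among the 59. Red points lie above 0 on both axes and, except for RFC3, closer to 0 on the y axis, and blue points lie below 0 on both.

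The share of a gene's reads that are T>C is taken as a measure of how new its RNA is. It includes any T>C reads that arise without the label, which were not measured. In control cells it ranged among the 58 genes from 1.43% (TK1, thymidine kinase) to 23.5% (MCM2), with a median of 5.45%, against 5.19% over all genes tested. The share was called in MCM2 and in no other of these genes, with each of the 4 treatments, where 0.181%, 0.442%, 0.342% and 1.02% of all genes were called with SRPIN340, Endovion, THZ531 and the combination. It was 21.3 and 27.2% in control, 17.6 and 12.7% with SRPIN340, 13 and 13.8% with Endovion, 17.3 and 13.2% with THZ531 and 13.4 and 14.3% with the combination. The control libraries were the highest. Relative to the reads without a conversion, T>C reads of MCM2 fell by 0.76 ± 0.15 on the log2 scale with SRPIN340 (adjusted p = 0.0126), by 0.86 ± 0.15 with Endovion (adjusted p = 0.00159), by 0.74 ± 0.15 with THZ531 (adjusted p = 0.00945) and by 0.83 ± 0.15 with the combination (adjusted p = 0.00162). Nascent MCM2 was at 505 and 477 in control, 451 and 531 with SRPIN340, 686 and 573 with Endovion, 634 and 669 with THZ531 and 637 and 625 with THZ531 and Endovion, a difference of 0.00 to 0.41 from control that was not called, while its total RNA was higher. All 4 share calls were lost without the second control library. The next highest control shares were 17.5% in POLD1 and 16.9% in ORC3, and in the setting that leaves out genes with a control share over 20% MCM2 was not tested. Its reads come from 1 interval, chr3:127621774-127622436 (hg38, plus strand), at the 3′ end of the gene.

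**Figure D4:**
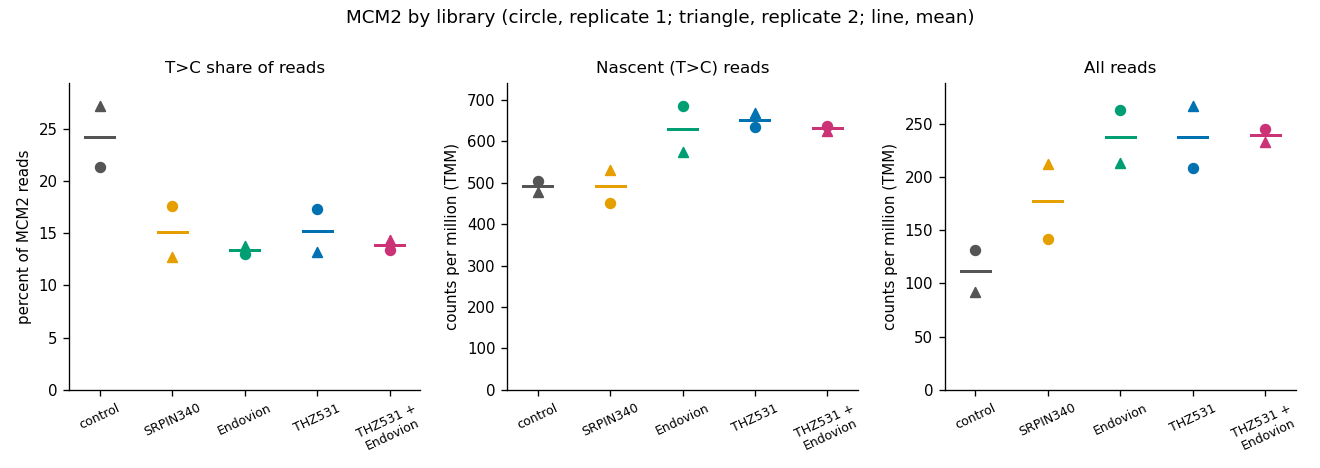
MCM2 in each library by group (x axis): the percent of its reads that are T>C (left), nascent CPM (middle) and total CPM (right), with every y axis from 0 and bars for the mean of 2. The share is highest in control, at 21.3 and 27.2%, while total CPM is lowest there and nascent CPM spans 451 to 686.

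CDK12 is known for its part in the expression of long genes, so the 59 were also divided by gene length at 33.6 kb, the median span of these genes. In total RNA with THZ531, 7 of the 30 shorter genes rose and 6 fell (23.3 and 20%, against 13.4 and 15.4% of all genes of that length), with a median log2 fold change of -0.00, and 8 of the 29 longer ones rose and 3 fell (27.6 and 10.3%, against 20.2 and 12.6%), with a median of 0.06. Over all genes the medians were -0.06 and 0.06. In nascent RNA the medians were 0.14 for the 29 shorter and -0.18 for the 29 longer genes tested, against -0.03 and 0.01 over all genes. These are descriptions, and the difference between short and long genes was not tested.

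A wider list of 72 genes of S phase entry, origin firing and fork maintenance was measured beside the 59, and 65 were tested in nascent and 70 in total RNA. CCND2 and CDKN1C were tested in neither, and DBF4B, MTBP, CLSPN, DNA2 and E2F5 in total RNA only. In total RNA 13 rose and 11 fell with THZ531 (18.6 and 15.7%), near the shares of all genes, and 6 and 11 did so without the second control library. The 4 of smallest p all fell. They were RBL1, an RB family repressor (-1.70 ± 0.16, adjusted p = 5.03e-06), BRCA1 (-1.02 ± 0.11, adjusted p = 1.63e-05), the CDK inhibitor CDKN1B (-1.20 ± 0.14, adjusted p = 2.37e-05) and TOPBP1, which helps activate the helicase (-1.17 ± 0.14, adjusted p = 2.65e-05). With the combination 16.6% of all genes rose and 12.4% fell. Between the combination and Endovion alone 2.29% of all genes rose and 5.94% fell, and 1.43% and 8.57% of the 70 did. The combination gave 17 rises and 9 falls (24.3 and 12.9%), or 8 and 7 without the second control library. Against Endovion alone it gave 1 and 6, with CDKN1B (-1.35 ± 0.14, adjusted p = 5.18e-05), RBL1 (-1.10 ± 0.15, adjusted p = 0.000416), BRCA2 (-1.11 ± 0.19, adjusted p = 0.00172) and TOPBP1 (-0.76 ± 0.13, adjusted p = 0.00238) the 4 of smallest p. With Endovion 19 of the 70 rose and 0 fell (27.1%, against 8.9% of all genes up), but 2 rose without the second control library, where 1.12% of all genes did, and of the 19 only 1, LIN54, was kept. SKP2, the ubiquitin ligase subunit that targets CDKN1B, rose by 0.89 ± 0.17 (adjusted p = 0.00607), LIN54 by 1.30 ± 0.23 (adjusted p = 0.00661), the firing factor TICRR by 0.85 ± 0.19 (adjusted p = 0.0105) and E2F4 by 0.66 ± 0.15 (adjusted p = 0.0137). With SRPIN340 LIN54 (1.10 ± 0.23, adjusted p = 0.0411) and TICRR (0.76 ± 0.19, adjusted p = 0.0465) rose, neither of them without the second control library.

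In nascent RNA 5 of the 65 rose and 3 fell with THZ531 (7.69 and 4.62%, against 3.86% and 3.6% of all genes), and 2 and 3 did so without the second control library. CDKN1B (-1.01 ± 0.19, adjusted p = 0.000163) and TOPBP1 (-1.49 ± 0.29, adjusted p = 0.000309) fell, and CDKN2D, a CDK4 and CDK6 inhibitor (1.36 ± 0.31, adjusted p = 0.00219), and the histone methyltransferase EZH2 (1.85 ± 0.46, adjusted p = 0.00598) rose. Against Endovion alone the combination lowered nascent CDKN1B by -1.19 ± 0.19 (adjusted p = 4.61e-05) and raised CDKN2D by 1.34 ± 0.30 (adjusted p = 0.0103). CDKN1B therefore had a lower nascent value in both pairs of groups, which have no library in common. The share of T>C reads of CCND1, cyclin D1, rose with THZ531 (0.59 ± 0.08, adjusted p = 2.78e-05) and its total RNA fell (-0.58 ± 0.11, adjusted p = 0.00126).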

How the data were processed

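SLAM-seq libraries of 22RV1 cells were compared in 5 groups of 2. Reads from the 3′ ends were mapped to hg38 by SLAM-DUNK, and the deposited counts, of reads and of T>C reads in every 3′ interval, were not normalized by the authors. Versions and settings of SLAM-DUNK, and whether the counts were reduced by molecular identifiers, are not given in the sources used here, and counting errors cover counting alone.

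Of 104653 intervals of 75026 transcripts, 92826 on the main chromosomes matched a GENCODE v44 transcript, and unmatched ones, with 3.53% of T>C reads, were left out. Of intervals that overlap, the one with most reads was kept (57531), since a plain sum counts 48.8% of T>C reads again, and 31015 genes were counted. Kept intervals of the same gene that lie apart were summed. None of the 59 genes shares an interval with another gene.

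T>C reads and all reads were each fitted over the 10 libraries with edgeR 4.0.16 (filterByExpr, TMM, robust quasi-likelihood, group means), and Benjamini-Hochberg adjustment ran over all 9946 or 14689 genes. TMM centres each library on most genes, so a change common to all genes would not show. For the share, the fit held both read classes of a library as a block and tested whether treatment changed T>C reads differently from the others. Scripts were tested on simulated data. DESeq2 1.42.0, other filters, scalings and each library left out were alternatives. The study's own threshold was another (a log2 fold change of 1 at an unadjusted p under 0.05).

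Of the 59, the genes named with values in every library are all those called, a fixed 11, and POLD3 for its difference between the combination and THZ531. Genes, lists and tests were chosen with earlier results of these data known. The comparison of the combination with Endovion alone, and the alternatives for the wider list, were added after seeing the data. None of the 10 libraries was given SRPIN340 with THZ531, so that pair was not analysed here.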

Additional observations from a re-analysis of the deposited data

How the results depend on the processing

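No called gene changed direction in the alternatives run: of 1350 combinations of a called one of the 59 and an alternative, 984 kept their call, 366 lost it and 0 reversed, and of 1815 for the wider list 1452 kept it, 363 lost it and 0 reversed. Only genes already called enter these combinations, and every alternative reuses the same libraries, so the absence of reversals does not test direction. The counts of called genes depended more on the settings, and the cause was not tested. In nascent RNA the counts for SRPIN340, Endovion, THZ531, and the combination against Endovion were 1, 4, 5 and 2. They were 0, 0, 0 and 0 with the plain sum of overlapping intervals, where the combination against control gave 2 in place of 4, and 0, 2, 3 and 0 with DESeq2. Fitting only the groups compared gave 0, 2, 1 and 1. The study's threshold gave 2 for SRPIN340, 3 for THZ531, 1 for the combination against THZ531 and 3 for the interaction. Total-read scaling gave 2 for Endovion, and gave 1 for the combination against Endovion, as did no filter on low counts and leaving out genes over 20% T>C.

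In total RNA DESeq2 gave 4 for SRPIN340, 1 for the combination against THZ531, 1 for the interaction and 7 for the combination against Endovion, where the plain sum gave 2. Only the groups compared gave 14 for THZ531 and 7 for the combination against Endovion. With no filter the counts were 10 for SRPIN340, 16 for Endovion, 1 for the combination against THZ531 and 5 for the interaction. Relative log expression scaling gave 1 for SRPIN340. The study's threshold gave 3 for SRPIN340, 6 for THZ531, 7 for the combination, 1 against THZ531, 3 for the interaction and 1 against Endovion.

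The share call of MCM2 was lost in all 4 treatments (count 0) with the plain sum and when genes over 20% T>C were left out, with SRPIN340 and THZ531 when the absolute share was tested, and in all 4 at the study's threshold, where 0, 2, 1 and 0 others of the 59 passed with SRPIN340, Endovion, THZ531 and the combination.

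A pairing of the samples by replicate number was not shown: same-numbered libraries deviated together with r of -0.0697 to 0.06 in nascent and -0.276 to 0.372 in total RNA. With 2 libraries a group these correlations cannot exclude a pairing. A replicate block gave 1 call in total RNA for the combination against THZ531 and 2 in share for the combination. With it the calls of E2F8 with Endovion and CCNE2 with THZ531 in nascent RNA were lost, as were, in total RNA, those of ORC6 with Endovion, DNMT1 with THZ531, UHRF1 and POLE with the combination, and CDC6 between the combination and Endovion.

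Leaving out 1 library at a time, nascent counts ranged from 0 to 2 for SRPIN340, 0 to 6 for Endovion, 0 to 5 for THZ531, 1 to 7 for the combination, 0 to 1 for the combination against THZ531 and for the interaction, and 0 to 2 against Endovion. Total counts ranged from 0 to 11, 0 to 15, 5 to 22, 7 to 20, 0 to 1, 0 to 6 and 0 to 6 in the same order, and share counts from 0 to 1 in each treatment. The lowest total count for THZ531 was without its second library, that for the combination without its first, and that for Endovion without either of its own. The highest for SRPIN340, Endovion, the combination and the interaction were without the first control library.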
